A study of Rattus norvegicus with 10 samples.

Results

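The 10 genes examined here encode the membrane to actin linkers radixin (Rdx), ezrin (Ezr) and moesin (Msn), together called the ERM proteins, and the kinases, phosphatase subunit, formin and motor that act with them downstream of the GTPase RhoA, namely Rock1, Rock2, Ppp1r12a, Mylk, Limk1, Diaph1 and Myh9. All probe sets whose only gene symbol in the array annotation was 1 of these were taken, which gave 23 of the 31042 probe sets tested, for 10 of the 14217 genes named by a single symbol. A further Myh9 probe set listed under more than 1 gene record was not used. Rdx was measured by 5 probe sets, Ppp1r12a and Rock2 by 4 each, Msn, Mylk and Diaph1 by 2 each, and Ezr, Rock1, Limk1 and Myh9 by 1 each.

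Resident peritoneal macrophages of Hsdcpb:WU rats, a Wistar stock, were cultured with 100 µg/ml of isolated myelin for 3 days (mye-macrophages, n = 5) or without myelin (control macrophages, n = 5). Both groups then received IFNγ plus IL-1β (100 ng/ml) over 9 hours, so that no sample shows unstimulated cells. Adherent cells of the lavage were over 95% macrophages in the labels' protocol. No label ties the samples of a group to different animals. The p-values of the main fit thus measure only the spread of differences between samples of the same replicate number, which may be technical. In a fit that ignores the number they measure only the spread between these samples, which may be technical as well. Each sample was hybridized to 1 Affymetrix rat array, and all values are log2 RMA signals.

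ERM proteins tie membrane proteins to the cortical actin skeleton once a threonine near their C-terminus is phosphorylated, which the kinases ROCK1 and ROCK2 can do. Active RhoA switches on ROCK1 and ROCK2 and the formin mDia1, the product of Diaph1. The ROCK kinases phosphorylate the myosin light chain, inhibit myosin phosphatase through its targeting subunit MYPT1, the product of Ppp1r12a, and activate LIM kinase 1, which in turn inactivates cofilin. In macrophages this pathway is known for contraction of the cell rear during migration and for the uptake of complement-coated particles.

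Some probe sets of Rdx, Ppp1r12a and Rock2 were lower in mye-macrophages. On the probe set of each gene with the highest mean the log2 differences were -0.04, -0.02 and -0.07. Of the 23 probe sets, 5 were called lower and 0 higher at an adjusted p under 0.05 in limma with the replicate number as a block, in which control macrophages and mye-macrophages of the same number form a pair. These were 2 of 5 probe sets of Rdx, 2 of 4 of Ppp1r12a and 1 of 4 of Rock2, with falls of 0.56 to 0.74 on the log2 scale. Adjustment was over the 15521 probe sets that varied most (interquartile range), and 18 of the 23 lie among these. Of those 15521, 1.9% were called lower and 0.792% higher. The study selected Rdx, Ppp1r12a and Rock2 from these same arrays, so their direction is not independent evidence. In these bulk samples fewer cells of a type and less RNA per cell cannot be told apart.

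**Figure D1:**
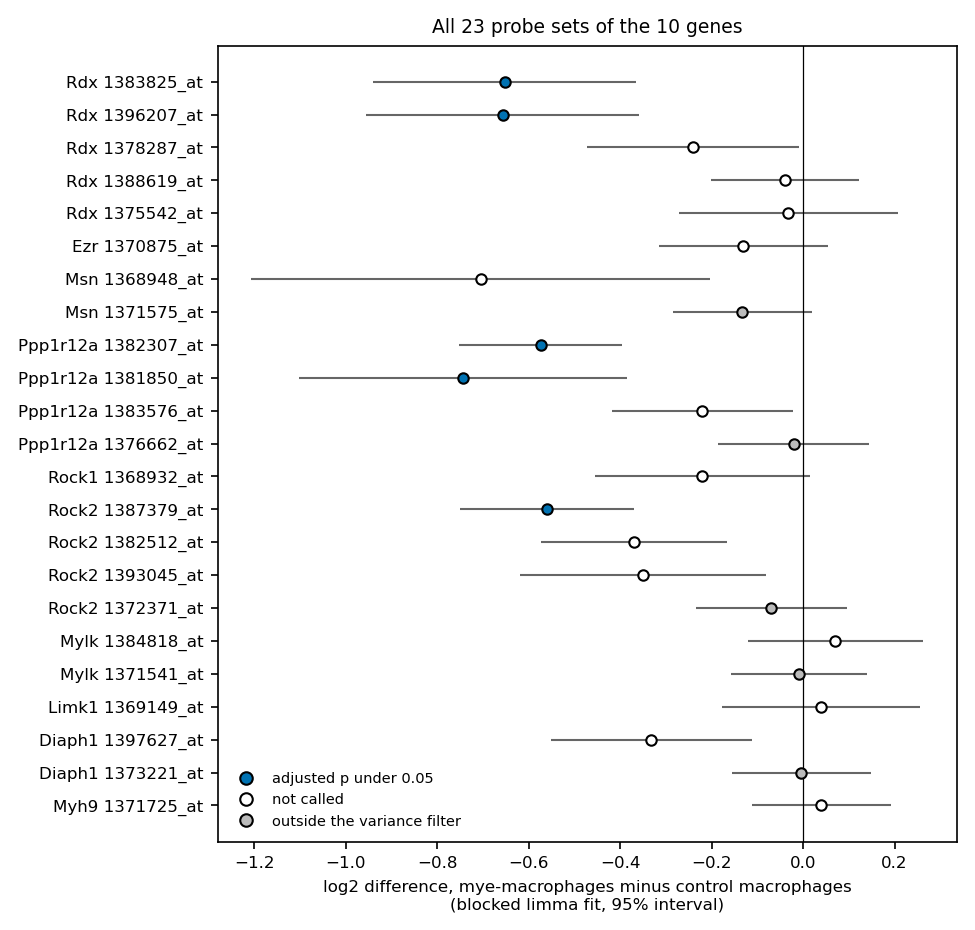
Log2 difference of each of the 23 probe sets (mye-macrophages minus control macrophages, blocked limma fit) with its 95% interval, where blue points passed an adjusted p of 0.05, white points did not and grey points lie outside the variance filter. The 5 blue points belong to Rdx, Ppp1r12a and Rock2, and the other probe sets of the same genes lie between -0.37 and -0.02.

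These calls depended on the block and on single pairs. In limma without the block 0 of the 23 probe sets passed (lowest adjusted p = 0.269 for Rock2), as did 0 of all 15521 (0.0%), and 9 of the 23 had an unadjusted p under 0.05, all lower (against 3.94% of the 15521). With the block, leaving out pair 1, pair 2 or pair 5 left 0 member probe sets called, leaving out pair 4 left 1, and leaving out pair 3 raised the number to 8. The whole table moved in the same way. Its 295 probe sets called lower became 20, 28 and 23 without pair 1, 2 or 5, 40 without pair 4 and 531 without pair 3. Its 123 called higher became 11, 14, 15, 32 and 141 in the same order. Adjusting over all 31042 probe sets left 2 called lower and 0 higher, 1 each of Ppp1r12a and Rock2 (against 0.287% of all probe sets lower and 0.126% higher).

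Sequence around the gene starts is shown for the 3 genes that were called on at least 1 probe set. The windows are those of a promoter table from RefSeq (GRCr8), which takes 250 bases before to 50 after an annotated start, and are given 5′ to 3′ on the strand of the gene, with matches to the motifs searched in capitals. The Rdx window is chr8:61275542-61275841 on the plus strand, that of Ppp1r12a chr7:45369194-45369493 on the plus strand and that of Rock2 chr6:45407866-45408165 on the plus strand. RefSeq's gene spans begin at 61275792 for Rdx, inside its window, but at 45368922 for Ppp1r12a and 45407823 for Rock2, so these windows lie wholly downstream of the outermost start of their genes.
Rdx: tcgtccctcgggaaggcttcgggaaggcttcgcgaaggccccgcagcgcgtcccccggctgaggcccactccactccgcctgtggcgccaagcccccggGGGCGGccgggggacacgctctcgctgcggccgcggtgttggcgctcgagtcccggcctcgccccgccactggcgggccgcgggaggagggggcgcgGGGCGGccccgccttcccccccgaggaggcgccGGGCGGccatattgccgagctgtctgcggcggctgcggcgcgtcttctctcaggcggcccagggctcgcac
Ppp1r12a: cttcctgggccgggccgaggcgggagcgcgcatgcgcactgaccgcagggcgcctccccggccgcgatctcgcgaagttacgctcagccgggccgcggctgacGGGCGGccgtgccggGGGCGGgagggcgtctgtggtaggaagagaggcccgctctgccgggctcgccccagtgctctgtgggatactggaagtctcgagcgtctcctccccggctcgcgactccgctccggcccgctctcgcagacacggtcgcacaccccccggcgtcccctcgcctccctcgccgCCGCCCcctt
Rock2: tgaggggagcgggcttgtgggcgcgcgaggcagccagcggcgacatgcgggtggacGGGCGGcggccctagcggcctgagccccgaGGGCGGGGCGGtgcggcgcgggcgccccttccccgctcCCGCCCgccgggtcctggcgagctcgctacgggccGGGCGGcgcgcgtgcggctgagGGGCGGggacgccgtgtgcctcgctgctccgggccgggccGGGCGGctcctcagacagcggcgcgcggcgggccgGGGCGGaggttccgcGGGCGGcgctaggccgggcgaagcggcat

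The motifs, searched on both strands, were the GC box (GGGCGG), the CCAAT box (CCAAT), the TATA box (TATAAA), the cAMP response element (TGACGTCA), the ETS core (CCGGAAG) and the serum response element (CArG box), the site of a factor known to respond to actin. All capitals in the 3 windows are GC boxes, of which Rdx and Ppp1r12a hold 3 each and Rock2 holds 9, some of them overlapping each other. A GC box was found in 33.1% of all 33469 promoter windows. It was also found in the windows of Ezr, Msn, Rock1, Limk1, Diaph1 and Myh9, none of which was called, so that 9 of the 11 windows of the 10 genes hold it. The GC content of the 3 windows was 78.7%, 75.7% and 82.7%, against a median of 51.7% over all windows. No window of the 10 genes held the letters of a CArG box, a cAMP response element or an ETS core, which 1.64%, 1.83% and 8.75% of all windows did.

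Rdx encodes radixin, which links membrane proteins to actin. On the probe set 1383825_at the log2 signal was 5.13, 5.11, 4.66, 4.45 and 4.98 in control macrophages (replicates 1 to 5) and 4.02, 4.21, 4.55, 3.98 and 4.31 in mye-macrophages. Every mye-macrophage value lay under the control value of the same number, while the groups overlapped through replicate 3 of mye-macrophages and replicate 4 of the controls. Rdx fell by 0.65 on this probe set (standard error 0.13, limma adjusted p = 0.0357), so that its signal fell by 36.4%. On the probe set 1396207_at the controls had 4.03, 4.40, 3.71, 3.36 and 3.97 and the mye-macrophages 3.13, 3.52, 3.62, 3.00 and 2.92. The fall was 0.66 (standard error 0.13, limma adjusted p = 0.0384), again in 5 of 5 pairs and with overlapping groups. Without any 1 of the pairs 1, 2, 4 and 5 neither Rdx probe set passed (limma adjusted p from 0.0743 to 0.133).

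The 3 other Rdx probe sets were not called. Probe set 1378287_at had a log2 difference of -0.24 (limma adjusted p = 0.232), 1388619_at had -0.04 and 1375542_at had -0.03, with 95% intervals for the last pair of -0.20 to 0.12 and -0.27 to 0.21. On 1388619_at the controls had 5.74, 5.59, 5.80, 5.71 and 5.87 and the mye-macrophages 5.59, 5.42, 5.91, 5.67 and 5.93. The range of the controls lay within the wider range of the mye-macrophages.

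Ppp1r12a encodes MYPT1, which brings the catalytic subunit of myosin phosphatase to myosin. Its probe set 1382307_at had the lowest p of the 23. The log2 signal was 7.10, 7.35, 7.07, 6.58 and 6.93 in control macrophages and 6.40, 6.81, 6.68, 6.13 and 6.13 in mye-macrophages, lower in 5 of 5 pairs with overlap between the groups. The fall was 0.57 (standard error 0.08, limma adjusted p = 0.0132), and the signal fell by 32.8%. It passed without pair 3 and without pair 4 (limma adjusted p = 0.00984 and 0.0418) and missed the threshold without pair 1, pair 2 or pair 5 (0.0588, 0.0520 and 0.0623).

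The largest fall among the 23 was that of the Ppp1r12a probe set 1381850_at, 0.74 (standard error 0.16, limma adjusted p = 0.0451). Control macrophages had 5.31, 5.30, 4.71, 4.69 and 4.56 and mye-macrophages 3.77, 4.40, 4.36, 4.07 and 4.27. All mye-macrophages lay under all controls (exact permutation test, two-sided, p = 0.00794, which is the lowest p possible with 5 samples a group). That test ignores the pairing, and the exact sign-flip test over the 5 pairs gave p = 0.0625, the lowest it can give. Neither is adjusted for the choice of a called probe set, and 0.283% of all probe sets lay apart in this direction. Pair 1 differed most (-1.54), and without it the log2 difference was -0.54 and not called (limma adjusted p = 0.0914). Probe set 1383576_at had -0.22 (limma adjusted p = 0.203) and 1376662_at had -0.02 (95% interval -0.18 to 0.14), with 7.21 ± 0.07 in control macrophages and 7.19 ± 0.12 in mye-macrophages (log2 signal, mean ± SD, n = 5 each).

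Rock2, the gene of the kinase ROCK2, was called on 1387379_at, and all 4 of its probe sets had differences under 0. On 1387379_at the controls had 3.39, 3.41, 3.34, 3.13 and 3.39 and the mye-macrophages 2.70, 2.66, 3.09, 2.62 and 2.79. The groups did not overlap, as in 0.283% of all probe sets in this direction, and the highest mye-macrophage value, replicate 3, lay just under the lowest control, replicate 4. The two-sided exact permutation test (p = 0.00794) and the exact sign-flip test over the pairs (p = 0.0625) each gave the lowest p it can give. Neither is adjusted for the choice of a called probe set. The fall was 0.56 (standard error 0.08, limma adjusted p = 0.0161), and the signal fell by 32.2%. Without pair 1, 2, 4 or 5 it was -0.51 to -0.57 with adjusted p-values of 0.0551 to 0.0683 from limma. The probe sets 1382512_at and 1393045_at had -0.37 and -0.35 (limma adjusted p = 0.0649 and 0.151), and 1372371_at had -0.07 (95% interval -0.24 to 0.10). Rock1, the gene of the kinase ROCK1, was measured by 1 probe set under the median of all values (2.32), with -0.22 (standard error 0.10, limma adjusted p = 0.276) and lower in 3 of 5 pairs. Whether Rock2 and Rock1 differ in their response was not tested.

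**Figure D2:**
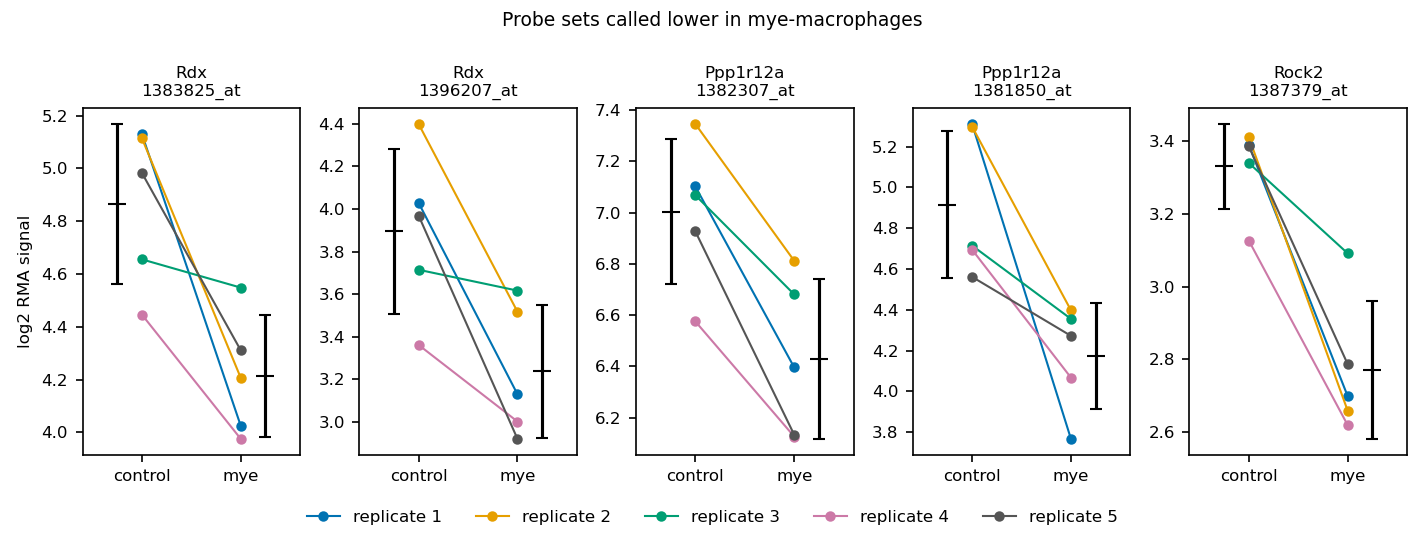
Log2 RMA signal of the 5 probe sets called lower, in control macrophages and mye-macrophages, where coloured lines join samples of the same replicate number and black bars give the mean ± SD of 5 samples. All 25 lines run downward, and the line of replicate 3 is the flattest in 4 of the 5 panels.

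Across the 23 probe sets low values were more common than over the whole table. Of the 23, 20 had a log2 difference under 0 (87.0%, against 48.4% of all probe sets), and their median was -0.22 against 0.0044 for all probe sets. At an unadjusted p under 0.05 in the blocked limma fit 11 were lower (47.8%, against 6.62% of all) and 0 higher (against 5.51%). Lower values in 5 of 5 pairs were found for 8 of the 23 (34.8%, against 6.59%), namely the 5 called, Rock2 1382512_at, Msn 1371575_at and Diaph1 1397627_at. The groups did not overlap in 2 of them (8.70%, against 0.283%), both of them lower in mye-macrophages, and in 0 the other way (against 0.451%). Probe sets of a gene share its transcripts, so these counts do not stand for 23 separate genes. The study selected Rdx, Ppp1r12a and Rock2 as lower on these same arrays, so a surplus of low values was built in. Both probe sets without overlap belong to these genes. Outside them Msn 1368948_at and Diaph1 1397627_at were lower at an unadjusted p under 0.05 in the blocked limma fit. The second probe sets of Msn and Diaph1 and all those of Ezr, Rock1, Mylk, Limk1 and Myh9 were not (against 6.62% of all lower).

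The 5 falls differed between pairs, and the order of the pairs by their median fall was also that of a sign of RNA quality. The median difference of the 5 called probe sets was -0.90 in pair 1, -0.88 in pair 2, -0.67 in pair 5, -0.47 in pair 4 and -0.25 in pair 3. The beta-actin gap, the signal at the 3′ end of that transcript minus that at its 5′ end, widens as RNA degrades. It was larger in mye-macrophages by 0.82 in pair 1, 0.45 in pair 2, 0.29 in pair 5 and 0.0015 in pair 4, and smaller in pair 3 (-0.21, all log2). Of the called probe sets only Rdx 1383825_at kept this order by itself. Rdx 1396207_at and Ppp1r12a 1382307_at fell most in pair 5 (-1.05 and -0.79) and Rock2 1387379_at in pair 2 (-0.75). Ppp1r12a 1381850_at fell least in pair 5 (-0.29). Whether RNA quality causes these falls was not tested. With this gap as a covariate beside the block the 5 differences were -0.39 and -0.43 (Rdx), -0.49 and -0.46 (Ppp1r12a) and -0.44 (Rock2). In that fit 0 of the 23 probe sets passed (lowest limma adjusted p = 0.128). The loss of calls was not confined to the 23. Over the whole table the same fit called 10 probe sets lower and 6 higher, where the block alone gave 295 and 123. The covariate leaves this fit fewer residual degrees of freedom than the block alone. A smaller count of calls therefore does not show what the gap accounts for. Over the groups the gap averaged 3.02 ± 0.30 (control) and 3.30 ± 0.32 (myelin-treated; mean ± SD, n = 5 each), with overlapping ranges.

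**Figure D3:**
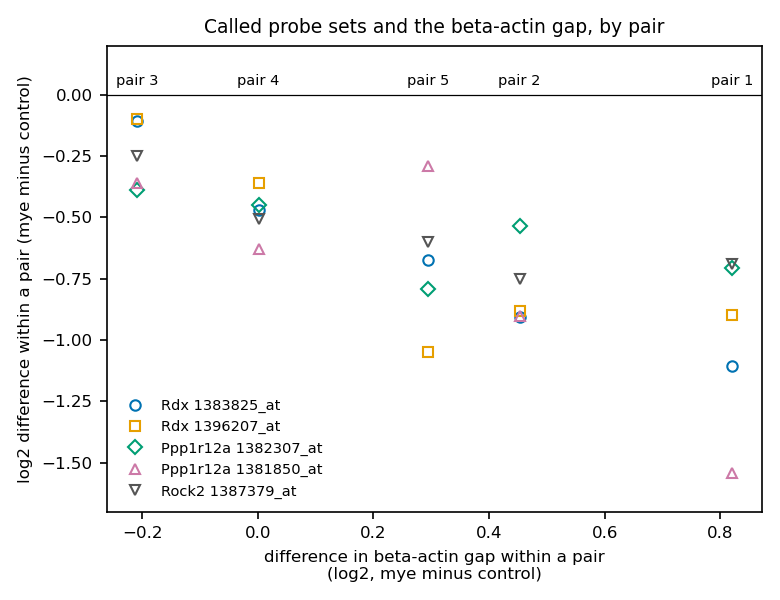
Within-pair log2 difference of the 5 called probe sets (vertical axis, mye minus control) against the within-pair difference in the beta-actin gap (horizontal axis, log2), 1 column of points per pair. Pair 3, where the gap was smaller in mye-macrophages, holds the smallest median fall (-0.25), and pair 1, with a difference in the gap of 0.82, the largest (-0.90).

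Probe sets of the same gene had log2 differences of unequal size. For Rdx, Ppp1r12a, Rock2, Msn and Diaph1 the probe set with the highest mean had a log2 difference between -0.13 and -0.0040, and other probe sets of these genes went as low as -0.74. Not all went this way. Mylk had -0.0089 on its probe set with the highest mean and 0.07 on the other, and Rdx 1375542_at had -0.03 against -0.04 on 1388619_at. The log ratio of each further probe set over the one with the highest mean was fitted with the block over 6609 such ratios of 4525 genes, a comparison chosen after the values were seen. The ratio of Rdx 1383825_at over 1388619_at was lower in mye-macrophages by 0.61 (standard error 0.12, limma adjusted p = 0.0499), 1 of 31 ratios called lower (0.469% of those tested), and 0 member ratios were among those called higher (0.106%). The corresponding ratios of the other 4 called probe sets were lower in 5 of 5 pairs by 0.49 to 0.72 and did not pass (limma adjusted p from 0.0594 to 0.0756). Without the block 0 of the 13 member ratios passed in limma (lowest adjusted p = 0.400). The share passing over all 6609 ratios was not counted for that fit. Such a ratio shows unequal change and does not show that a probe set did not change.

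**Figure D4:**
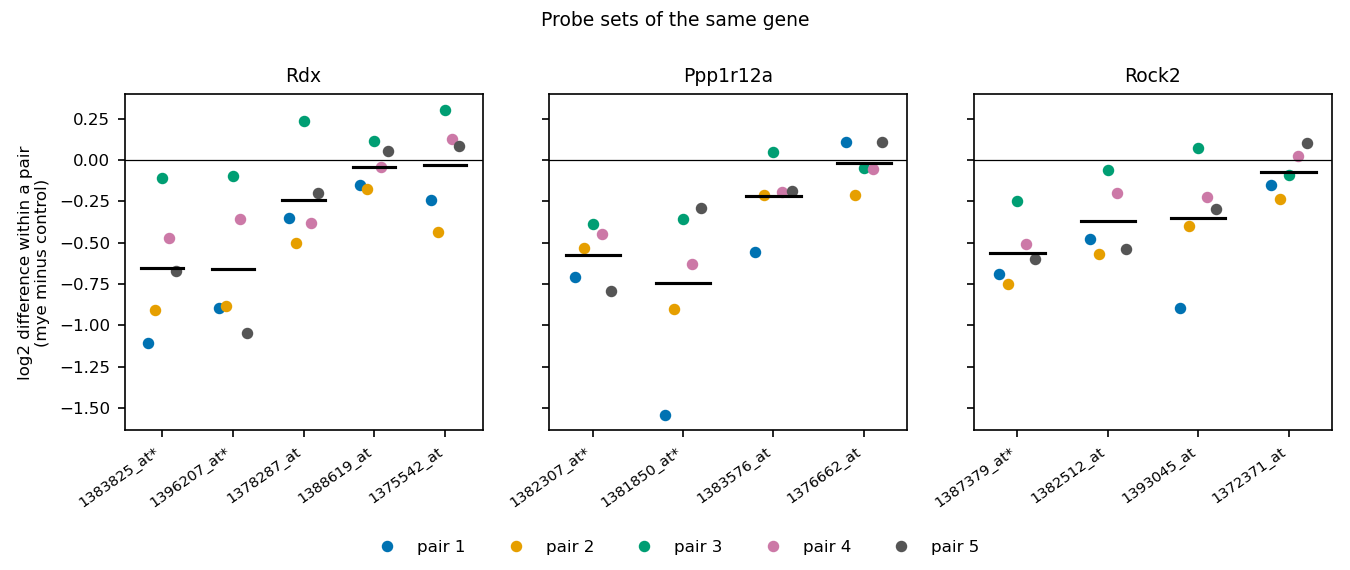
Log2 difference within each pair (mye minus control, coloured points) and its mean (black bars) for every probe set of Rdx, Ppp1r12a and Rock2, with an asterisk on the 5 called. In each gene the bars run from -0.56 or lower on the left to between -0.07 and -0.02 on the right.

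Among the other ERM genes, Msn had lower values on both probe sets without passing. The moesin probe set 1368948_at gave 4.43, 4.20, 4.00, 4.24 and 3.68 in control macrophages and 2.64, 3.12, 4.12, 3.86 and 3.29 in mye-macrophages. Replicates 1 and 2 of mye-macrophages stood below all other samples, and replicate 3 lay above its control. The log2 difference was -0.70 (standard error 0.22, limma adjusted p = 0.127), and it was -0.43 without pair 1, -0.22 in the fit that includes the beta-actin gap, and -0.91 and called without pair 3 (limma adjusted p = 0.0443). The second Msn probe set, 1371575_at, had a difference of -0.13 (standard error 0.07, 95% interval -0.29 to 0.02), was lower in 5 of 5 pairs and lies outside the variance filter. Ezr had 7.43 ± 0.31 in control macrophages and 7.30 ± 0.24 in mye-macrophages (log2 signal, mean ± SD, n = 5 each), a difference of -0.13 (95% interval -0.32 to 0.05, limma adjusted p = 0.406). Whether Rdx, Msn and Ezr differ from each other in their response was not tested.

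The effectors beside the ROCK kinases showed no call. Diaph1, the gene of the formin mDia1, which elongates actin filaments, had -0.33 on 1397627_at (standard error 0.10, limma adjusted p = 0.108) and was lower there in 5 of 5 pairs. Control macrophages had 4.55, 4.85, 4.36, 4.09 and 4.36 and mye-macrophages 4.30, 4.37, 4.31, 3.92 and 3.65, with overlapping groups. The other Diaph1 probe set, 1373221_at, had -0.0040 (95% interval -0.16 to 0.15). Limk1, whose product phosphorylates cofilin, had 0.04 (95% interval -0.18 to 0.25), and Myh9, the heavy chain gene of non-muscle myosin IIA, had 0.04 (95% interval -0.11 to 0.19). Mylk, the gene of myosin light chain kinase, which acts on the light chain against the phosphatase, had 0.07 and -0.0089 on probe sets whose means lie under the median of all values.

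The other genes of the pathway were taken from 4 lists, of which 62 genes were measured by 94 probe sets, of which 51 passed the variance filter. Of these 51, 2 were called lower and 0 higher, against 1.9% and 0.792% of the 15521. In the counts and medians by list, a gene with several probe sets enters with its brightest. Among 16 exchange factors and GTPase activating proteins 1 fell and 0 rose, with a median of 0.03 (all probe sets: 2 fell and the median was -0.0016). Arhgap5, which encodes the p190-B GTPase activating protein, fell by 0.72 (standard error 0.14, limma adjusted p = 0.0336). The controls had 5.56, 5.81, 4.97, 5.00 and 5.46 and the mye-macrophages 4.90, 5.35, 4.77, 4.05 and 4.15. This gene, too, was selected by the study on these arrays. Akap13, the gene of an exchange factor and kinase anchor, fell by 0.54 on 1382268_at (standard error 0.09, limma adjusted p = 0.0252), while its probe set with the highest mean had -0.12 and did not pass. Neither call was made by limma without the block (adjusted p = 0.585 for Arhgap5 and 0.750 for Akap13). With 1 pair left out of the blocked fit Arhgap5 passed without pair 3 only, and Akap13 without pair 2 or pair 3.

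No gene of the other 3 lists was called. The 11 ERM regulators and membrane partners had a median of -0.02, and the lowest p-values on any probe set were those of the adhesion receptor genes Icam1 (0.20, limma adjusted p = 0.156) and Cd44 (-0.17, 0.183, and -0.15 on its brightest probe set, outside the filter). The 19 genes of myosin chains, further phosphatase subunits and kinases acting on the light chain had a median of 0.07, and the lowest p-values on any probe set were those of the kinase genes Dapk3 (0.27, limma adjusted p = 0.119) and Dapk1 (-0.26, 0.119, and 0.11 on its brightest probe set). The 16 genes of the LIM kinase, cofilin and formin branch had a median of -0.04, and the lowest p-values on any probe set were those of the p21-activated kinase gene Pak2 (-0.25, limma adjusted p = 0.157, and -0.11 on its brightest probe set, outside the filter) and the formin gene Fmnl1 (-0.20, 0.192). Pak2, too, is among the genes the study selected as lower on these arrays. The median over all probe sets was 0.0044.

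No cell type marker that passed the variance filter was called, against 1.9% called lower and 0.792% higher of the 15521, and markers outside the filter could not be called. Of 12 macrophage markers 6 passed the filter and 0 were called, and their summed signal spanned 13.66 to 14.10 in control macrophages and 13.71 to 14.18 in mye-macrophages (log2). Of 11 smooth muscle and fibroblast markers, 8 mesothelial and epithelial markers, 8 T, B and NK cell markers and 10 mast cell, granulocyte and platelet markers, 4, 4, 8 and 9 passed the filter and 0 were called. Their summed signals spanned 5.24 to 6.82, 4.41 to 4.52, 5.40 to 5.93 and 5.26 to 8.48 in control macrophages and 5.28 to 6.91, 4.35 to 4.67, 5.18 to 6.29 and 5.35 to 8.58 in mye-macrophages. The median difference of the last list was 0.14. These lists bear on Mylk and Ezr, which smooth muscle and epithelial cells are known to express.

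The genes whose signal over the 10 arrays ran most closely with Ppp1r12a 1382307_at were Zfp91, Wbp4, Gemin5, Zc3h15 and Usp7 (Pearson's r of 0.983, 0.977, 0.975, 0.975 and 0.970, 1 probe set per gene). The points share the groups and the replicate numbers, and the values are a description. Their log2 differences were -0.53, -0.65, -0.74, -0.49 and -0.31 in the same order, which the choice by likeness to a lower probe set favours, and no test is given for them. Within the 10 genes the values of Rdx 1396207_at (0.962) and Diaph1 1397627_at (0.909) ran most closely with this probe set, and the uncalled Ppp1r12a probe sets 1383576_at and 1376662_at had r of 0.650 and -0.131.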

How the data were processed

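RNA of 10 samples was measured on Affymetrix rat arrays. The authors deposited log2 values per probe set after RMA (affy package, versions not given in the sources used here), which corrects background, equalizes the arrays and summarizes probes. The table holds 31099 probe sets. The 57 Affymetrix controls were left out of the fits, 20826 of the 31042 others have 1 gene symbol, and values lay between -0.04 and 13.09. Precision is limited by the number of arrays. The blocked fit (replicate number as a fixed factor) used lmFit and eBayes of limma 3.58.1 under R 4.3.3, with Benjamini-Hochberg adjustment over the most variable 50% of probe sets by interquartile range. The methods name an unpaired test with a filter of that size, which was an alternative. Deviations from the group means correlated at 0.404 to 0.791 between samples of the same number (at most 0.279 across numbers), so the numbers were taken as pairs from the labels and the values. Exact tests were run in Python 3.11.15 with NumPy 2.4.6, and the fit was tested on simulated data. Named were all member probe sets, pathway genes called or, failing these, the pair of lowest p per list, and the 5 closest patterns. A further pathway list is not reported here. Members and lists were chosen with earlier results of these data known. Alternatives covered the block, test, variance prior, array weights, scaling, filter, beta-actin covariate and each pair left out.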

Additional observations from a re-analysis of the deposited data

Results flagged for a closer look

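Among 62 groups of 5 values tested for an outlying sample, 1 held one, and chance gives about 1 in 20 groups. Control replicate 4 of Rock2 1387379_at (3.13) lay below the other controls (3.34 to 3.41), on the side of the mye-macrophages.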

How the results depend on the processing

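The 5 member probe sets called stood against 0 without the replicate block, 0 with the methods' t-test (9 at an unadjusted p under 0.05), 0 with a paired test without a shared variance, 1 with the replicate number as a random block, 2 without the variance filter, 0 with the gap in beta-actin as covariate, and 0 to 8 with 1 pair left out. The direction of all 5 held under every alternative run, which was in part fixed in advance. A change of block, test, variance prior or filter leaves the log2 difference as it is. All 5 fell in every pair, so leaving out 1 pair could not turn them. Only array weights, median centring, quantile normalization and the covariate could have done so. The 295 probe sets called lower and 123 called higher over the whole table became 0 and 0 without the block, with the t-test and with the paired test, 446 and 332 at an unadjusted p under 0.05 in the t-test, 7 and 4 with the random block, 654 and 387 with a trend and robust prior, 89 and 39 without the filter, 10 and 6 with the covariate, and 20 to 531 and 11 to 141 with 1 pair left out. The 1 call among exchange factors and activating proteins became 0 without the block or without the filter, and 2 with all probe sets. Array weights, median centring, quantile normalization and the mean filter kept the count of member calls within 1.5 times. Probe sets near 0 turned direction. Rdx 1388619_at was 0.0270 and Rdx 1375542_at 0.13 with the covariate, Rdx 1375542_at was 0.0036 with array weights, Limk1 was -0.0752 with the covariate and Diaph1 1373221_at was 0.0154 with quantile normalization. With 1 pair left out Rdx 1375542_at ran from -0.117 to 0.0683, Ppp1r12a 1376662_at from -0.0528 to 0.0285, Mylk 1384818_at from -0.0099 to 0.12, Mylk 1371541_at from -0.031 to 0.0184, Limk1 from -0.0597 to 0.0999 and Diaph1 1373221_at from -0.0291 to 0.0297. The cause was not tested.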
